A study of Mus musculus with 24 samples.

Results

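The genes described here are 48 mouse genes of the cell cycle and DNA replication, out of 22274 genes in the deposited table. They were taken from a list of symbols, and each of the 48 was found in the table. Of these, 31 act mainly in mitosis and 17 in S phase or its start, a division made from general knowledge of each gene. The 24 libraries form 8 groups of 3, and all mice were male C57BL/6J. Pituitary stalk electrical lesion (PEL) cuts the pituitary off from the hypothalamus by burning through the stalk between them with a current. The hypothalamic groups without hormone were Sham (labelled day 0), PEL_3d (day 3 after the lesion) and PEL_10d (day 10). Each of these had a matching group given growth hormone (GH), called Sham_GH, PEL_3d_GH and PEL_10d_GH, and the labels used here give no GH dose or schedule. Hippocampus was taken from Sham mice (HIP_Sham) and from PEL mice at day 10 (HIP_PEL_10d), without GH. There is no Sham group of day 3 or day 10, so time after surgery and the lesion cannot be told apart in the comparisons with Sham. The main comparison is PEL_10d against PEL_3d, which asks how the genes changed between the early and the later time after the lesion.

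A cell that divides first licenses its replication origins, copies its DNA in S phase and then separates the copies in mitosis. E2F factors switch on the genes of S phase, which include the MCM helicase, the sliding clamp PCNA and ribonucleotide reductase. Cyclin B with CDK1 drives entry into mitosis, the spindle and kinetochore proteins move the chromosomes, and the anaphase-promoting complex marks cyclins for degradation so that the cell can leave mitosis. Mature neurons do not divide. In the injured adult brain, microglia, astrocytes, oligodendrocyte precursors, endothelial cells and invading blood cells can divide, and a small pool of progenitors divides in the hippocampus.

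Total counts lay between 15095267 and 17973494 per library. A library labelled Sham 1 stood apart from its group, with a summed level of hypothalamus markers of 13.8 FPKM against 1371 FPKM and 1429 FPKM in Sham 2 and Sham 3, and of hippocampus markers of 428 FPKM against 85.7 FPKM and 80.7 FPKM. Its choroid plexus markers summed to 14725 FPKM, against at most 22.3 FPKM in the other hypothalamic libraries. FPKM is the count of fragments scaled by transcript length and by the depth of the library. The library labelled HIP_Sham 1 stood apart the other way, with 1195 FPKM of hypothalamus markers and 79.0 FPKM of hippocampus markers. The labels were kept, and the counts of calls against Sham and HIP_Sham are given with and without these libraries. The study itself set a Sham library aside as an outlier. An arrow marks it in a supplementary plot, and the study's text does not say which replicate it was. HIP_Sham 3 is titled as hippocampus although its tissue field reads hypothalamus, and its markers were those of the hippocampal libraries.

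At day 3 after PEL, nearly all of the 48 genes were far above their levels at day 10 and in Sham mice. Summed over the 31 mitosis genes, expression was 240.5 ± 27.6 FPKM (SD, n = 3) in PEL_3d and 30.5 ± 3.29 FPKM in PEL_10d, a 7.90-fold difference. Over the 17 S phase genes, the sums were 192.7 ± 6.42 FPKM and 73.5 ± 3.89 FPKM, a 2.62-fold difference. With GH, the mitosis sum was 252.9 ± 80.7 FPKM in PEL_3d_GH and 34.4 ± 3.78 FPKM in PEL_10d_GH, and the S phase sum was 199.7 ± 45.2 FPKM and 71.7 ± 1.57 FPKM. In Sham the sums were 29.7 ± 6.82 FPKM and 70.4 ± 6.34 FPKM, and in Sham_GH they were lower, at 20.4 ± 0.989 FPKM and 60.6 ± 2.45 FPKM. Without Sham 1, whose mitosis sum was 37.5 FPKM, the Sham means were 25.8 FPKM and 67.8 FPKM (n = 2). The PEL_10d_GH libraries, at 30.1 to 37.0 FPKM and 70.1 to 73.3 FPKM, did not overlap those of Sham_GH, at 19.4 to 21.4 FPKM and 58.9 to 63.4 FPKM. Single genes weighed on these sums, since the PEL_10d_GH mean exceeded that of Sham_GH by 5.84 FPKM for Anln (mitosis) and by 5.97 FPKM for Pcna (S phase). In bulk tissue, fewer dividing cells and less of each RNA per cell cannot be told apart.

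**Figure D1:**
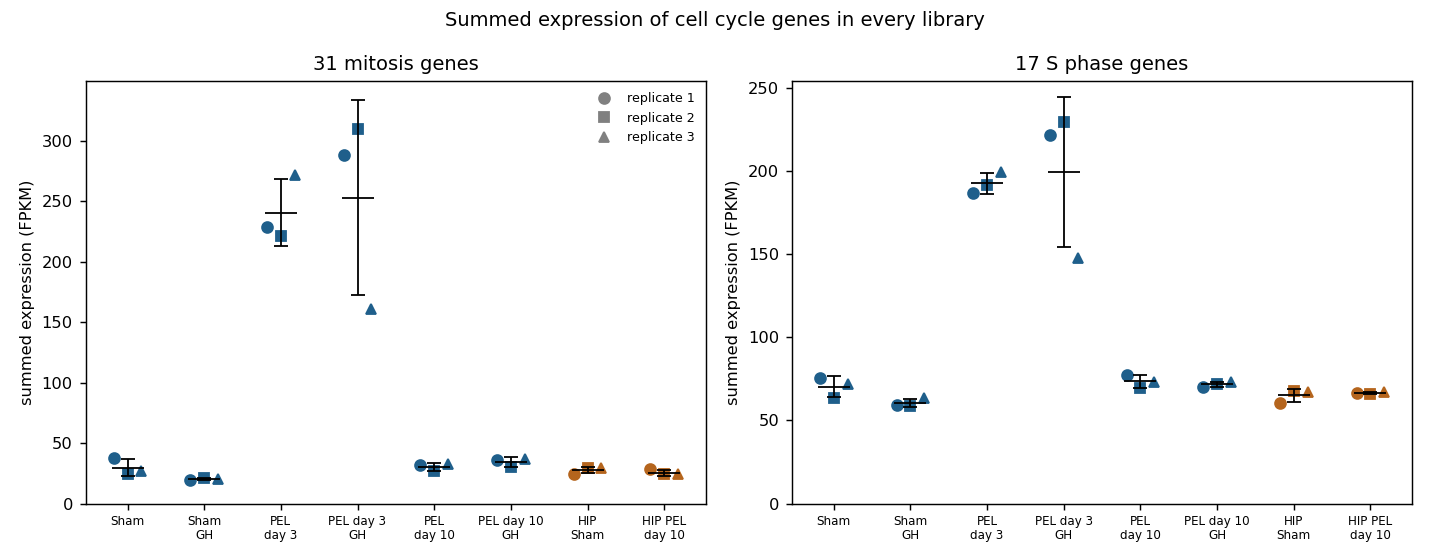
Summed expression (FPKM, vertical axis from 0) of the 31 mitosis genes (left) and the 17 S phase genes (right) in each library, by group, with the mean (wide bar) and SD (error bar, n = 3), hypothalamus in blue and hippocampus (HIP) in brown. The 6 day 3 libraries lie above all other libraries in both panels, and replicate 3 of PEL day 3 GH is the lowest of the 6, at 161 FPKM for mitosis and 148 FPKM for S phase.

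In the 6 day 3 libraries, with or without GH, 45 of the 48 genes were higher in every library than in any of the 12 other hypothalamic libraries. Among 14787 genes with a mean count of at least 10 over the hypothalamic libraries, 8.6% had this pattern. The 3 exceptions were Anln, Ccne1 and Hells. Between PEL_3d and PEL_10d, 47 of 48 genes fell, where 12.2% of the 14807 genes tested did (edgeR's quasi-likelihood test, adjusted p under 0.05). No gene of the 48 rose. Of the 47, Aurkb, Melk, Ttk and Dtl passed the filter on low counts through PEL_3d alone. They were thus tested only because they were high in that group, and their calls are not independent of the filter. The median log2 fold change over the 48 genes was -3.37, against 0.01 over all genes tested. It was -3.61 for the mitosis genes, of which 30 of 31 fell, and -1.77 for the S phase genes, of which 17 of 17 fell. With GH, between PEL_3d_GH and PEL_10d_GH, 46 of 48 genes fell, where 10.8% of all genes tested did, with a median of -3.38. Melk, Bub1 and Ndc80 passed the filter through PEL_3d_GH alone.

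**Figure D2:**
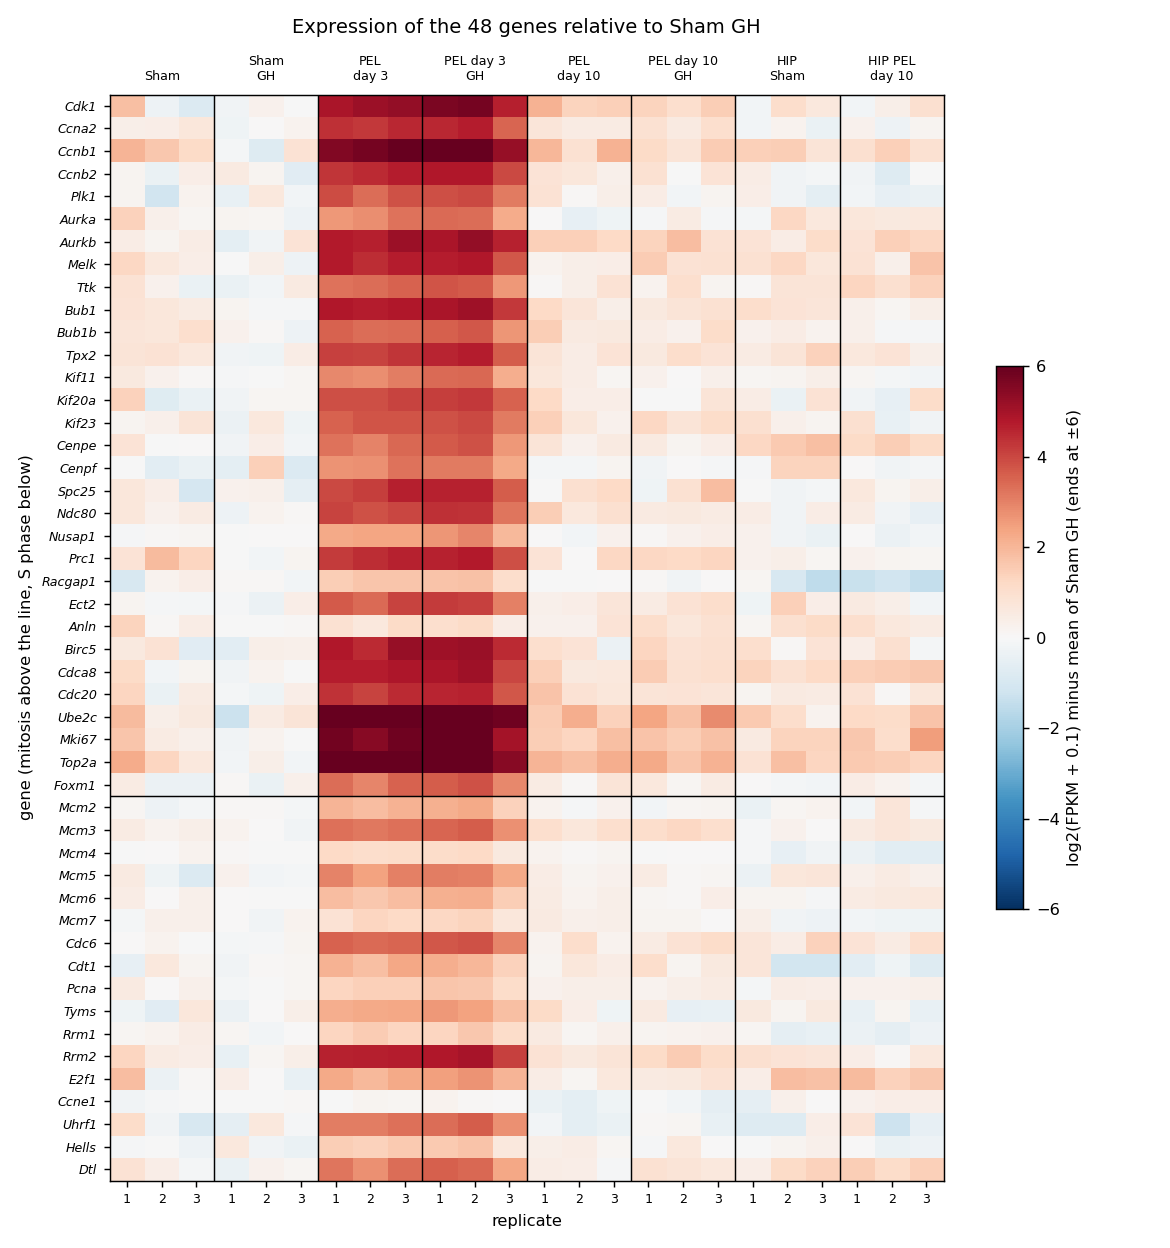
Each cell is the log2(FPKM + 0.1) of a gene (row) in a library (column, by group and replicate) minus the mean of the 3 Sham GH libraries, with the 31 mitosis genes above the line and the 17 S phase genes below, and the colour scale ending at ±6. The 6 day 3 columns stand out in most mitosis rows and more faintly in many S phase rows, such as those of Mcm4 and Pcna. Anln and Ccne1 are pale throughout, and replicate 3 of PEL day 3 GH is paler than the libraries beside it.

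The promoters of the 48 genes were searched for 3 kinds of short motif that are known from genes of mitosis and S phase. Sequences are those of RefSeq on GRCm38.p6, in windows of 300 bases, from 250 before to 50 after the transcript start, and 42 of the 48 genes had a window, 26 for mitosis and 16 for S phase. Ect2, Prc1, Mcm7 and Uhrf1 had 2 windows each, which overlapped for Ect2 and Prc1 and lay apart for Mcm7 and Uhrf1, and a gene was counted where any of its windows held the letters. Both strands were read. The letters CCAAT are bound by NF-Y. The letters TTTGAA and TTCGAA are those of the cell cycle genes homology region (CHR), an element of many mitosis promoters. The E2F motif was read as TTCGCGC or TTGGCGC, and also as TTCCCGC or TTGCCGC. Matches of different motifs can share bases, as where an E2F match runs into a CCAAT match in the window of Ccnb1. Of the 26 mitosis genes, 21 (80.8%) held CHR letters, against 2 of 16 S phase genes (12.5%), Mcm2 and Mcm7, and 21.7% of all 27025 genes with a window. E2F letters were in 4 mitosis genes (15.4%) and 11 S phase genes (68.8%), against 10.9% of all genes. CCAAT was in 21 mitosis genes (80.8%) and 10 S phase genes (62.5%), against 41.1% of all genes. In 20 of the 21 mitosis genes with CHR letters a match began at or after base -50. When the search ended at the start, 10 of the 26 mitosis genes (38.5%) held one, against 19.6% of all genes. A match describes letters in the window and is no site.

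**Figure D3:**
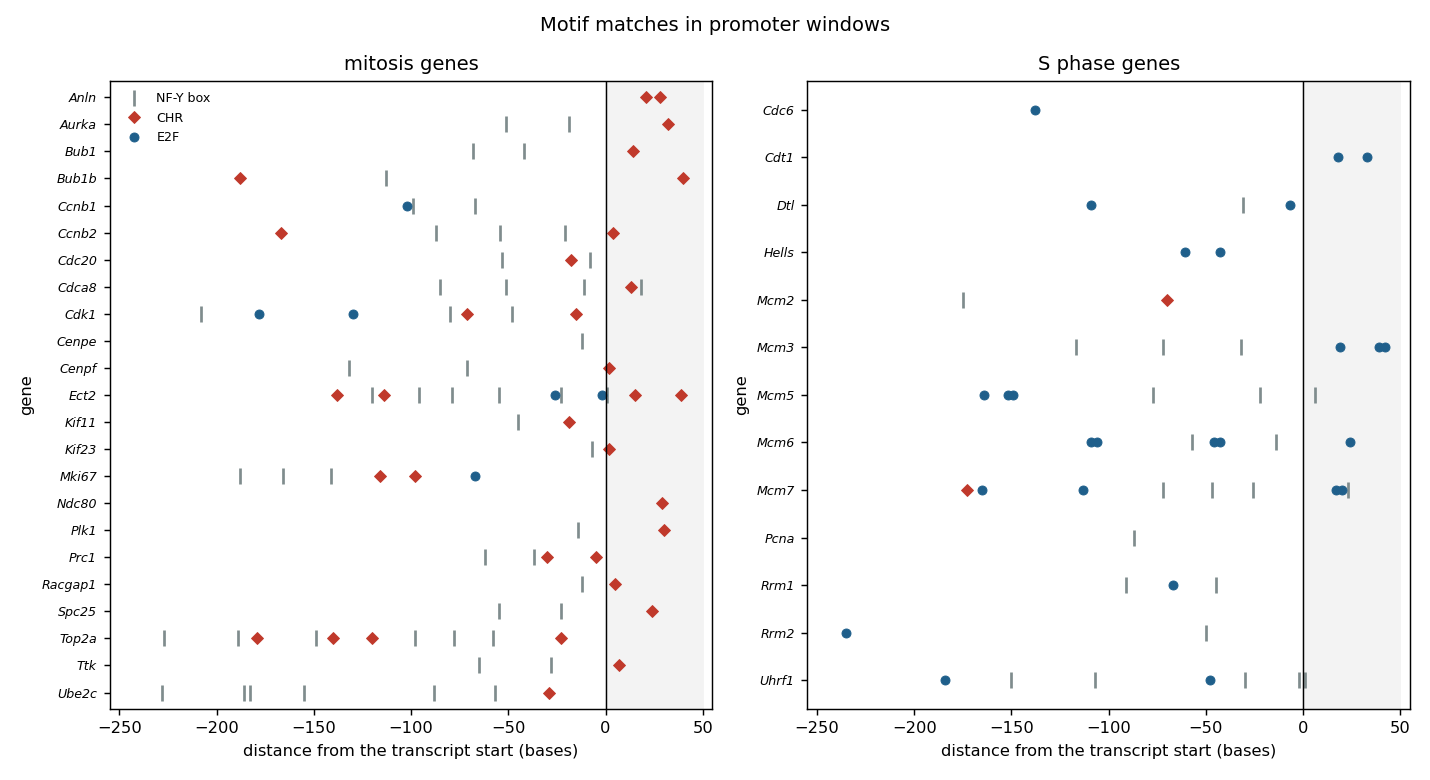
Position of each motif match (horizontal axis, distance of its first base from the transcript start in bases, with the 50 bases after the start shaded) in each gene's promoter window, for mitosis genes (left) and S phase genes (right), with NF-Y boxes as grey ticks, CHR as red diamonds and E2F as blue circles. Red diamonds mark 21 mitosis genes and cluster near the start, blue circles mark 11 S phase genes, and the 4 genes with 2 windows have the matches of both, so that a match in the overlap of the Ect2 or Prc1 windows is drawn once from each start.

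The promoters of 4 mitosis genes and of the helicase genes Mcm2, Mcm3, Mcm5 and Mcm6 are printed to show how the motifs are placed and where they differ, from 150 bases before to 30 bases after the transcript start, 5′ to 3′ along the gene, with the letters of all 3 motifs in capitals.
Cdk1, chr10:69352883-69353062, minus strand: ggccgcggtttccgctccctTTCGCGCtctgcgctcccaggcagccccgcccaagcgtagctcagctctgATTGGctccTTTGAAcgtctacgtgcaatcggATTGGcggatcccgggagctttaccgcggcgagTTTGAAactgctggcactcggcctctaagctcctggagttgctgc
Bub1, chr2:127831830-127832009, minus strand: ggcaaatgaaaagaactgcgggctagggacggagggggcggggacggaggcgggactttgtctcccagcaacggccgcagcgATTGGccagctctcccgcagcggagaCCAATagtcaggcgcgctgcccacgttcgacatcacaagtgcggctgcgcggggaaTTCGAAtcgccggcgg
Cenpf, chr1:189688057-189688236, minus strand: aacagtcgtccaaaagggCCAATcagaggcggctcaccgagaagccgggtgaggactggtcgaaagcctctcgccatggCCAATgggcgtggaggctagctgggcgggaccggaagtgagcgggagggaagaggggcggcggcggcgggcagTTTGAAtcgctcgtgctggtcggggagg
Ube2c, chr2:164769779-164769958, plus strand: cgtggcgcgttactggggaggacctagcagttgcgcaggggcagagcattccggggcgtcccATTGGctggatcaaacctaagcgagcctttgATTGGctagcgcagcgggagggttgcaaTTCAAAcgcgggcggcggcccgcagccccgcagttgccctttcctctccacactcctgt
Mcm2, chr6:88898751-88898930, minus strand: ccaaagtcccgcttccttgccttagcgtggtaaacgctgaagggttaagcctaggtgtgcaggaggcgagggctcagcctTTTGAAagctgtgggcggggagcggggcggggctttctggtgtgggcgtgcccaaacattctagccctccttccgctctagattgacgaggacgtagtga
Mcm3, chr1:20820283-20820462, minus strand: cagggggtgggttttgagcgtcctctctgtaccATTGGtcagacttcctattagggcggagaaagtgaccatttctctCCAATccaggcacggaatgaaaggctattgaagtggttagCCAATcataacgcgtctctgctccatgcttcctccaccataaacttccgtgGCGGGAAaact
Mcm5, chr8:75109359-75109538, plus strand: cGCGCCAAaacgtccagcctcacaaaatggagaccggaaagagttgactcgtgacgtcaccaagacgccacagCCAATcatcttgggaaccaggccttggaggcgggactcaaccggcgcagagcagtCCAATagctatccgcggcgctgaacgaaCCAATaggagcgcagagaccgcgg
Mcm6, chr1:128359676-128359855, minus strand: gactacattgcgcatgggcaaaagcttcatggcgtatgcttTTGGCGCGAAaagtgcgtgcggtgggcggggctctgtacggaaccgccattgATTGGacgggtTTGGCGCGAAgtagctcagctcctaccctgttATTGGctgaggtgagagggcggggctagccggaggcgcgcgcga

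The 11 mitotic kinases and cyclins all fell between day 3 and day 10, with a median log2 fold change of -4.01. Cdk1, the kinase that drives entry into mitosis, had 14.3, 16.6 and 18.4 FPKM in the PEL_3d libraries and 1.91, 1.10 and 1.18 FPKM in the PEL_10d libraries. Every day 3 library was thus far above every day 10 library, and the log2 fold change was -3.75 ± 0.19 (SE, edgeR, adjusted p = 4.47e-06). The gene (ENSMUSG00000019942) spans bases 69335146 to 69352938 of chromosome 10 in GRCm38, read from the minus strand, and its promoter held letters of all 3 motifs. Ccna2, which encodes cyclin A2, a partner of CDK2 and CDK1 from S phase on, had 11, 10.1 and 12.2 FPKM in PEL_3d and 0.771, 0.650 and 0.639 FPKM in PEL_10d. The groups were far apart, with a log2 fold change of -4.01 ± 0.14. Ccnb1, which encodes cyclin B1, the partner of CDK1 in mitosis, had 8.10, 9.27 and 12 FPKM in PEL_3d and 0.596, 0.230 and 0.626 FPKM in PEL_10d. The groups did not overlap, and the log2 fold change was -4.50 ± 0.30. Bub1 and Bub1b encode kinase-like proteins of the spindle checkpoint, which delays anaphase until chromosomes are attached. Bub1 had 3.41, 3.17 and 3.37 FPKM in PEL_3d and 0.185, 0.105 and 0.057 FPKM in PEL_10d. Bub1b had 5.95, 5.30 and 5.46 FPKM in PEL_3d and 1.35, 0.671 and 0.691 FPKM in PEL_10d. Both pairs of groups were apart, with a smaller log2 fold change for Bub1b (-2.62 ± 0.23) than for Bub1 (-4.80 ± 0.28). Melk, a kinase gene of dividing cells, had the lowest log2 fold change of the 48, at -5.66 ± 0.28. It had 3.32, 2.57 and 3.14 FPKM in PEL_3d and at most 3 counts in each PEL_10d library, so the size of its fall is set by very few counts. Summed over libraries and scaled by total counts, Melk had 428 counts in PEL_3d and 8 in PEL_10d, a 53.2-fold difference with a 95.0% exact (Clopper-Pearson) interval of 26.8-fold to 124.1-fold, which covers counting error only.

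The 15 genes of the spindle, the kinetochore and cytokinesis had a median log2 fold change of -3.38 between day 3 and day 10, and 14 of them fell. Tpx2, whose product starts spindle microtubules and activates Aurora A, had 8.77, 8.43 and 9.84 FPKM in PEL_3d and 0.772, 0.595 and 0.825 FPKM in PEL_10d. All day 3 values were above all day 10 values, with a log2 fold change of -3.52 ± 0.13. Kif11 encodes the motor that pushes the spindle poles apart. It had 4.55, 4.19 and 5.23 FPKM in PEL_3d and 0.907, 0.759 and 0.593 FPKM in PEL_10d, with a log2 fold change of -2.62 ± 0.17. Kif20a, a motor of the central spindle needed for cytokinesis, had 5.51, 5.62 and 6.45 FPKM in PEL_3d and 0.784, 0.410 and 0.415 FPKM in PEL_10d. Its groups were apart by a log2 fold change of -3.91 ± 0.21. Cenpf, a large kinetochore protein gene, had 1.84, 1.92 and 2.74 FPKM in PEL_3d and 0.176, 0.178 and 0.233 FPKM in PEL_10d. The groups did not overlap, and the log2 fold change was -3.38 ± 0.17. Like that of Bub1, its promoter held CHR letters and NF-Y boxes and no E2F letters in the bases printed.

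Prc1 encodes the protein that bundles the microtubules of the central spindle. It had 12, 14.2 and 16.0 FPKM in PEL_3d and 1.05, 0.566 and 1.46 FPKM in PEL_10d, with a log2 fold change of -3.85 ± 0.22. Ect2 encodes the exchange factor that activates RhoA at the cleavage furrow, and Racgap1 the protein that recruits it there. Ect2 had 3.48, 2.83 and 4.59 FPKM in PEL_3d and 0.241, 0.272 and 0.357 FPKM in PEL_10d. Racgap1 had 14.5, 16.4 and 16.3 FPKM in PEL_3d and 4.96, 4.93 and 5.11 FPKM in PEL_10d. Both fell, and the log2 fold change was -3.61 ± 0.24 for Ect2 and -1.64 ± 0.08 for Racgap1, whose level at day 10 was well above that of Ect2. Cdca8, which encodes borealin of the chromosomal passenger complex, had 7.61, 7.57 and 8.46 FPKM in PEL_3d and 0.701, 0.352 and 0.360 FPKM in PEL_10d. Its groups were apart by a log2 fold change of -4.05 ± 0.25.

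Ube2c and Cdc20 serve the anaphase-promoting complex, as a ubiquitin-conjugating enzyme and as an activator. Ube2c had 17.5, 17.3 and 20.2 FPKM in PEL_3d and 0.589, 0.993 and 0.537 FPKM in PEL_10d. Its log2 fold change was -4.67 ± 0.22, and that of Cdc20 was -3.27 ± 0.26. Mki67 encodes the Ki-67 antigen, which coats mitotic chromosomes and is widely used as a marker of dividing cells. It had 9.19, 7.20 and 9.64 FPKM in PEL_3d and 0.371, 0.310 and 0.484 FPKM in PEL_10d. Top2a, which encodes the topoisomerase that untangles DNA before chromosomes part, had 15.7, 14.4 and 17.1 FPKM in PEL_3d and 0.764, 0.621 and 0.858 FPKM in PEL_10d. Both genes fell, with log2 fold changes of -4.46 ± 0.17 and -4.39 ± 0.13, and the adjusted p of Top2a was the smallest of the 48 (edgeR, 4.87e-07). Foxm1 encodes a transcription factor that switches on many genes of mitosis. It had 5.19, 3.93 and 5.95 FPKM in PEL_3d and 0.626, 0.451 and 0.792 FPKM in PEL_10d, with a log2 fold change of -3.24 ± 0.18.

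The S phase genes also fell, by less at the median than the mitosis genes. The 8 genes of origin licensing and the MCM helicase had a median log2 fold change of -1.83. Mcm2, Mcm3 and Mcm5 encode subunits of the helicase ring. Mcm2 had 7.82, 7.0 and 8.06 FPKM in PEL_3d and 2.19, 1.73 and 2.23 FPKM in PEL_10d. Mcm3 had 10.2, 9.34 and 10.2 FPKM in PEL_3d and 2.01, 1.60 and 1.99 FPKM in PEL_10d. Mcm5 had 9.10, 6.18 and 9.41 FPKM in PEL_3d and 1.47, 1.19 and 1.30 FPKM in PEL_10d. The printed bases of Mcm3 and Mcm5 held E2F letters and no CHR letters, while those of Mcm2 held CHR letters and no E2F letters. In all of these genes the groups were apart, with log2 fold changes of -1.93 ± 0.13, -2.40 ± 0.12 and -2.65 ± 0.19. The log2 fold changes of the other subunits were -0.93 ± 0.08 for Mcm4, -1.41 ± 0.10 for Mcm6 and -1.15 ± 0.10 for Mcm7. Cdc6 and Cdt1, which load the helicase onto origins, had log2 fold changes of -3.59 ± 0.41 and -1.72 ± 0.22.

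Pcna, which encodes the sliding clamp of DNA polymerases, had the highest level of the 48 genes. It had 53.2, 59.0 and 58.4 FPKM in PEL_3d and 26.1, 27.6 and 27.9 FPKM in PEL_10d, with a log2 fold change of -1.06 ± 0.07. Rrm1 and Rrm2 encode the large and the small subunit of ribonucleotide reductase, which makes the building blocks of DNA. Rrm2 had 15.8, 16.7 and 17.1 FPKM in PEL_3d and 1.10, 0.885 and 1.01 FPKM in PEL_10d. Rrm1 had 20.9, 24.4 and 21.2 FPKM in PEL_3d and 12.6, 9.28 and 10.6 FPKM in PEL_10d. The small subunit thus fell by 4.10 ± 0.15 on the log2 scale and the large subunit fell by 1.16 ± 0.08. E2f1, an E2F factor that switches on S phase genes, had 2.77, 2.19 and 2.73 FPKM in PEL_3d and 0.715, 0.547 and 0.807 FPKM in PEL_10d. Its groups were apart by a log2 fold change of -1.89 ± 0.21. Uhrf1 and Dtl, which act on newly copied chromatin and in the ubiquitin control of S phase, had log2 fold changes of -3.89 ± 0.25 and -3.65 ± 0.33, and Hells, a chromatin remodeller gene, had -1.77 ± 0.18.

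Anln and Ccne1 stood apart from the other 46 genes. Anln encodes anillin, a scaffold of the cleavage furrow that myelinating oligodendrocytes also express. It had 12.8, 10.3 and 15.0 FPKM in PEL_3d and 7.97, 8.08 and 12 FPKM in PEL_10d. The groups overlapped, and the log2 fold change of -0.31 ± 0.17 did not pass the test (edgeR, adjusted p = 0.225). With GH its log2 fold change was 0.08 ± 0.12 (edgeR, adjusted p = 0.702). Ccne1, which encodes cyclin E1, the partner of CDK2 at the start of S phase, had 5.55, 6.34 and 6.16 FPKM in PEL_3d and 4.37, 3.81 and 4.77 FPKM in PEL_10d. Its log2 fold change of -0.49 ± 0.15 passed the test (edgeR, adjusted p = 0.0443), but not with DESeq2 nor without PEL_3d 1, PEL_3d 2, PEL_3d 3, PEL_10d 1 or PEL_10d 2. With GH it was -0.42 ± 0.14 (edgeR, adjusted p = 0.0674).

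**Figure D4:**
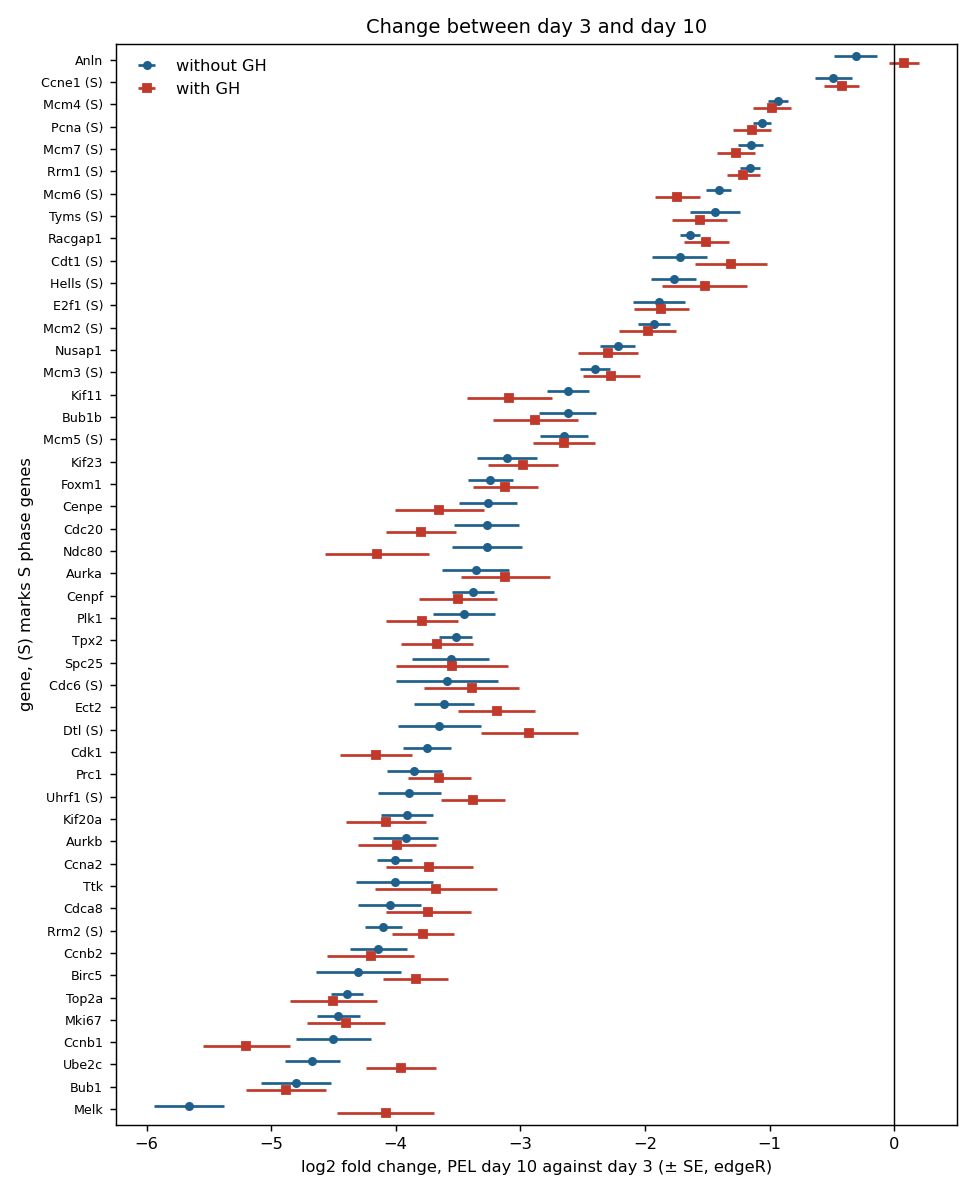
Log2 fold change of PEL day 10 against day 3 (horizontal axis, ± SE, edgeR) for each of the 48 genes, without GH (blue circles) and with GH (red squares), ordered by the value without GH, with S phase genes marked (S). Values run from -0.31 for Anln to -5.66 for Melk without GH, and S phase genes fill most of the upper rows.

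Against Sham, the same genes were higher at day 3. In PEL_3d, 45 of 48 genes rose over Sham, where 10.4% of all genes tested did (edgeR, adjusted p under 0.05), with a median log2 fold change of 3.66. Of the 45, 8 passed the filter on low counts through PEL_3d alone, which were Ccnb2, Aurkb, Melk, Ttk, Bub1, Spc25, Ndc80 and Cdc6. The 3 genes that did not pass were Anln (-0.03 ± 0.39), E2f1 (1.33 ± 0.65) and Ccne1 (0.38 ± 0.15). Without Sham 1, all 48 passed, where 22.3% of all genes did, and the median was 4.05. Mki67 had 0.435, 0.138 and 0.108 FPKM in the Sham libraries, Sham 1 being the highest, and its log2 fold change in PEL_3d was 5.18 ± 0.56 over all Sham libraries and 6.09 ± 0.20 without Sham 1. E2f1 had 2.05 FPKM in Sham 1 and 0.361 FPKM and 0.515 FPKM in the other Sham libraries. Sham 1 thus came close to the day 3 values of 2.19 to 2.77 FPKM, and the log2 fold change of E2f1 without it was 2.52 ± 0.27 (edgeR, adjusted p = 4.24e-05). With GH, 47 of 48 genes rose in PEL_3d_GH over Sham_GH, where 26.9% of all genes did, with a median of 4.18, and Ccne1 (0.25 ± 0.12) did not pass. Of the 47, 14 passed the filter through PEL_3d_GH alone, Cdk1, Ccnb1, Cenpe and Ube2c among them.

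At day 10 few of the genes were called against Sham. Over all Sham libraries, 37 of the 48 genes passed the filter on low counts in PEL_10d against Sham, and 0 were called by edgeR and 0 by DESeq2, where 1.81% of all genes tested were higher. At an unadjusted p under 0.05, edgeR gave 1 gene, Mcm3 (log2 fold change 0.53 ± 0.20), where 8.5% of all genes were higher. Without Sham 1, 39 genes were tested and 2 were higher, where 7.98% of all genes were. They were Cdk1, which passed the filter through PEL_10d alone (1.87 ± 0.45, edgeR, adjusted p = 0.0337) and Mki67 (1.63 ± 0.32, adjusted p = 0.0158). Cdk1 had 0.285 FPKM and 0.175 FPKM in Sham 2 and Sham 3 against 1.10 to 1.91 FPKM at day 10. Top2a, next in order, had a log2 fold change of 1.23 ± 0.33 (edgeR, adjusted p = 0.0513). Aurka, which encodes Aurora A, had 0.612, 0.387 and 0.488 FPKM in PEL_10d and 0.747 FPKM and 0.654 FPKM in Sham 2 and Sham 3, a log2 fold change of -0.52 ± 0.39 that did not pass.

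With GH, 40 genes were tested in PEL_10d_GH against Sham_GH, 13 were higher and 0 were lower, where 17.7% of all genes tested were higher (edgeR, adjusted p under 0.05). The 13 were Cdk1, Tpx2, Cenpe, Prc1, Ect2, Anln, Cdca8, Ube2c, Mki67, Top2a, Mcm3, Pcna and Rrm2, that is, 10 mitosis genes and 3 S phase genes. Top2a had 0.086, 0.165 and 0.083 FPKM in Sham_GH and 0.903, 0.569 and 0.787 FPKM in PEL_10d_GH. Mki67 had 0.044, 0.097 and 0.068 FPKM in Sham_GH and 0.451, 0.370 and 0.472 FPKM in PEL_10d_GH. Neither gene's groups overlapped, with log2 fold changes of 2.71 ± 0.33 and 2.58 ± 0.29. Mcm3 had a log2 fold change of 1.16 ± 0.18 and Pcna 0.32 ± 0.09, while Mcm2, Mcm4, Mcm5, Mcm6 and Mcm7 had values between 0.01 and 0.29 that did not pass. The call of Pcna was lost in 1 fit over all hypothalamic groups, with or without Sham 1, and without PEL_10d_GH 2, PEL_10d_GH 3, Sham_GH 1 or Sham_GH 2. Tpx2 lost its call without any of these same PEL_10d_GH and Sham_GH libraries. Ect2 did so too, and also with DESeq2, with the replicate block, with no filter on low counts and in 1 fit over all hypothalamic groups. Cenpe lost its call with DESeq2, with the replicate block, in 1 fit over all hypothalamic groups with or without Sham 1, and without PEL_10d_GH 1, PEL_10d_GH 3 or any Sham_GH library. Cdca8 lost its call with DESeq2 and without PEL_10d_GH 1, Sham_GH 1 or Sham_GH 3, and Anln in 1 fit over all hypothalamic groups. The count was 9 without PEL_10d_GH 3, a library with 5555 FPKM of anterior pituitary markers where 33.0 FPKM was the lowest of its group, and 8 without Sham_GH 1. The share of all genes tested that were higher was 14.4% without PEL_10d_GH 3 and 13.5% without Sham_GH 1. Of the 13 genes, Cdk1, Cenpe, Cdca8 and Ube2c passed the filter on low counts through PEL_10d_GH alone. They were thus tested only because they were high in that group, and their calls are not independent of the filter. At a mean count of at least 50, 13 members were tested and 3 were higher, Pcna, Anln and Mcm3, where 18.8% of all genes tested were. Of the rise at day 3, the median gene had 3.89% left at day 10 with GH, and without GH 2.06% taken over all Sham libraries and 3.46% over Sham 2 and Sham 3.

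**Figure D5:**
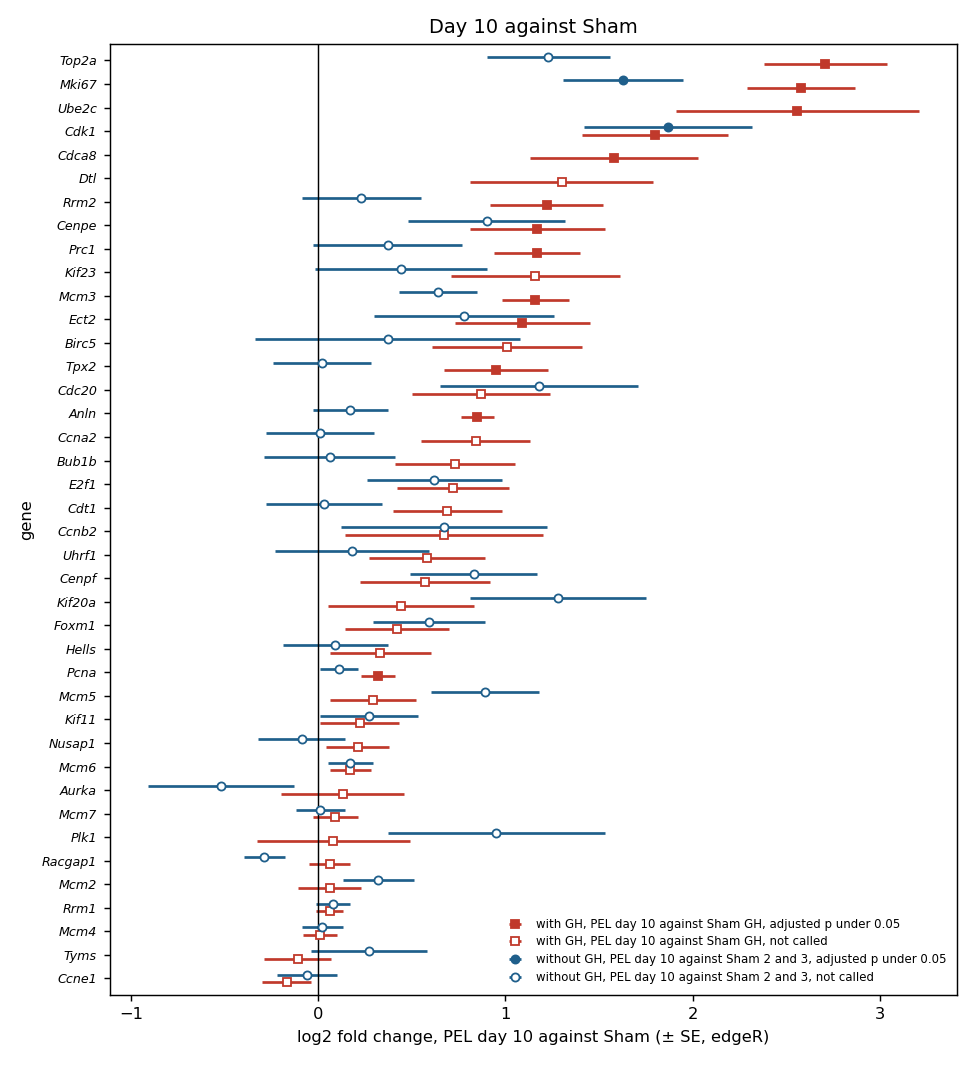
Log2 fold change of PEL day 10 against Sham (horizontal axis, ± SE, edgeR) for the 40 genes tested with GH (red squares, against Sham GH) and, where tested, without GH (blue circles, against Sham 2 and Sham 3), filled where the adjusted p was under 0.05. With GH 13 squares are filled, the highest being Top2a at 2.71, and without GH the filled circles are Cdk1 and Mki67.

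Set against the matching group without GH, no gene of the 48 was called at any stage, where 0.027% of all genes tested were called at day 3 and 0% at day 10 or in Sham. At day 3, all 48 were tested in PEL_3d_GH against PEL_3d, edgeR and DESeq2 each called 0, and edgeR gave 0 at an unadjusted p under 0.05, where it gave 6.8% of all genes. The log2 fold changes lay between -0.20 (Tyms) and 0.29 (Cdk1). At day 10, 42 genes were tested and both tools called 0, with 1 at an unadjusted p under 0.05, Anln, with a log2 fold change of 0.45 ± 0.15, where 3.73% of all genes were higher at that threshold. In Sham_GH against Sham, 35 genes were tested and both tools called 0. Here 6 genes were lower at an unadjusted p under 0.05, which were Ccnb1, Bub1b, Tpx2, Mki67, Top2a and Rrm2, where 3.12% of all genes were. Without Sham 1, edgeR again called 0 of 35 genes, where 1.09% of all genes were called, and 5 were lower at an unadjusted p under 0.05, which were Ccnb1, Bub1b, Tpx2, Racgap1 and Top2a, where 6.69% of all genes were. The change between day 3 and day 10 was also compared between mice with and without GH as an interaction. It was called by edgeR or DESeq2 in 0 of 48 genes, where edgeR called 0% of all genes tested, and Melk was the 1 gene at an unadjusted p under 0.05, with a difference of 1.59 ± 0.63 on the log2 scale, where 1.9% of all genes had a higher value at that threshold. For Mki67 the difference was 0.08 ± 0.41 (SE) and for Top2a -0.09 ± 0.44, so these libraries leave room for differences in either direction.

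PEL_3d_GH 3 was the lowest library of its group for 48 of 48 genes. Cdk1 had 24.2, 25.8 and 12.2 FPKM in the PEL_3d_GH libraries, and Top2a had 21.2, 20.9 and 9.02 FPKM. Relative to the mean of PEL_3d_GH 1 and 2, the median of the 48 genes in PEL_3d_GH 3 was 55.6%, in a range of 40.6% to 91.8%, while the median of all genes with a mean of at least 1 FPKM was 99.4%. In this library the markers of microglia and macrophages summed to 1257 FPKM, against 1636 FPKM and 1561 FPKM in PEL_3d_GH 1 and 2. The markers of astrocytes summed to 1284 FPKM against 1762 FPKM and 1828 FPKM, and those of neurons to 1156 FPKM against 981 FPKM and 974 FPKM. Their part in the lower cell cycle values was not tested. Without this library, edgeR called 0 of the 48 genes in PEL_3d_GH against PEL_3d, where 0.322% of all genes tested were higher. In that fit 33 genes were higher in every library with GH, where 17.3% of all genes were, 23 were higher at an unadjusted p under 0.05, where 9.68% of all genes were, and the median log2 fold change was 0.30. Its smallest adjusted p (edgeR) was 0.0526, for Tpx2 (0.52 ± 0.09). PEL_3d_GH 3 was the lowest library for these same genes, so leaving it out raises the GH group for them. These counts therefore cannot show an effect of GH. Without PEL_3d_GH 3, 47 of 48 genes fell between PEL_3d_GH and PEL_10d_GH, where 16.4% of all genes did.

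Markers of several cell types moved with the cell cycle genes in the hypothalamus. Of all genes tested, 10.4% rose and 1.04% fell in PEL_3d over Sham, 22.3% rose and 18.2% fell without Sham 1, and 6.33% rose and 12.2% fell between PEL_3d and PEL_10d. All 12 markers of microglia and macrophages rose in PEL_3d over Sham, with or without Sham 1, and all 12 fell between PEL_3d and PEL_10d. Their sum was 154 to 181 FPKM in Sham, 1107 to 1395 FPKM in PEL_3d and 482 to 635 FPKM in PEL_10d, so at day 10 it stayed above Sham. The mitosis sum in PEL_10d was 26.7 to 32.8 FPKM, against 37.5, 24.8 and 26.8 FPKM in Sham 1, 2 and 3. The S phase sum was 69.6 to 77.4 FPKM, against 75.7, 63.4 and 72.2 FPKM. With GH, both cell cycle sums at day 10 lay above those of Sham_GH. Of 8 astrocyte markers, 5 rose in PEL_3d over Sham (6 rose and 1 fell without Sham 1), and between day 3 and day 10 1 rose and 3 fell, with sums of 517 to 545 FPKM in Sham, 1471 to 1630 FPKM in PEL_3d and 904 to 1035 FPKM in PEL_10d. Of 9 markers of endothelial cells and pericytes, 4 rose in PEL_3d over Sham (8 without Sham 1) and 4 fell between day 3 and day 10. Of 8 markers of oligodendrocyte precursors, 3 rose in PEL_3d over Sham (6 without Sham 1), and 4 fell and 1 rose by day 10. Of the 10 markers of blood leukocytes, 4 were tested in PEL_3d against Sham and 2 rose (5 of 5 without Sham 1), and the sum was 9.67 to 27.9 FPKM in PEL_3d against 0.601 to 5.0 FPKM in Sham and 6.02 to 12.8 FPKM in PEL_10d, with Ly6g and Cd3g at 0 in each Sham library. With GH the leukocyte sum was 7.4 to 11.1 FPKM in PEL_3d_GH and 13.7 to 33.7 FPKM in PEL_10d_GH, a direction opposite to that of the cell cycle sums. Of 6 fibroblast and meningeal markers, 5 rose in PEL_3d over Sham (6 without Sham 1) and 1 fell by day 10.

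Of 8 markers of neural progenitors and young neurons, 1 rose in PEL_3d over Sham (2 rose and 2 fell without Sham 1), and of 7 tested 1 rose and 2 fell by day 10. Their sum was 39.1 FPKM in Sham 1, 19.9 FPKM and 19.6 FPKM in Sham 2 and Sham 3, 32.1 to 36.2 FPKM in PEL_3d and 18.9 to 20.6 FPKM in PEL_10d. In the PEL_3d_GH libraries it was 32.6, 33.3 and 23.5 FPKM, lowest in PEL_3d_GH 3, as for the cell cycle genes. Of 6 neuron markers, 1 fell in PEL_3d over Sham (4 without Sham 1), and 2 rose and 1 fell by day 10, with sums of 1361 to 1422 FPKM in Sham, 1078 to 1205 FPKM in PEL_3d and 1165 to 1290 FPKM in PEL_10d. The part of any of these cell types in the cell cycle values was not tested.

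Lists of further cell cycle genes, which do not overlap the 48, were also compared between PEL_3d and PEL_10d, where 12.2% of all genes tested fell and 6.33% rose. Of 43 further genes of DNA replication, 36 fell and 0 rose, with a median log2 fold change of -1.32. They included E2f8, an E2F repressor (-3.38 ± 0.20), Clspn, which encodes claspin of the replication checkpoint (-3.94 ± 0.26), and Tk1, which encodes thymidine kinase (-3.84 ± 0.25). Of 61 further genes of mitosis, 59 fell and 0 rose, with a median of -2.90. They included the spindle genes Ckap2l (-4.33 ± 0.16), Aspm (-4.00 ± 0.20) and Hmmr (-4.11 ± 0.22). Of 6 G1 cyclins and their kinases, 5 fell, with smaller changes in Ccnd1, which encodes cyclin D1 (-1.15 ± 0.07), Cdk4 (-0.67 ± 0.08) and Cdk2 (-1.52 ± 0.22). Of 17 cell cycle inhibitors, 16 were tested, 5 fell, 1 rose and 10 were not called. Rbl1, which encodes the retinoblastoma-like protein p107, had -1.58 ± 0.12, Cdkn2c, which encodes an inhibitor of CDK4 and CDK6, -2.57 ± 0.22, and Cdkn1a, which encodes p21, -1.0 ± 0.12, while Rbl2, named here after its values were seen, was the gene that rose (0.29 ± 0.08). With GH, 34 of the 43, 59 of the 61, 4 of the 6 and 6 of the 16 genes tested fell, where 10.8% of all genes did.

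In the hippocampus at day 10, the summed levels of the 48 genes were near those of hypothalamic Sham mice in both groups. The mitosis genes summed to 27.9 ± 2.71 FPKM (SD, n = 3) in HIP_Sham and 25.6 ± 2.48 FPKM in HIP_PEL_10d, and the S phase genes to 65.2 ± 4.04 FPKM and 66.6 ± 0.543 FPKM. Without HIP_Sham 1, the HIP_Sham means were 29.4 FPKM and 67.5 FPKM (n = 2). The mitosis sums of HIP_Sham 2 and 3 were then above those of HIP_PEL_10d, at 24.1 to 28.4 FPKM. Anln alone had 13.1 FPKM and 14.9 FPKM in HIP_Sham 2 and 3 and 13.5, 10.5 and 9.40 FPKM in HIP_PEL_10d. Of 38 genes tested, edgeR called 0, where 0% of all genes were called. At an unadjusted p under 0.05 it gave 2, Mcm6 (0.54 ± 0.11) and Mcm3 (0.62 ± 0.21), where 3.63% of all genes were higher. DESeq2 called 1, Mcm6 (DESeq2, adjusted p = 0.0231), and the share of all genes that DESeq2 called was not counted. Mcm6 had 5.33, 5.33 and 4.53 FPKM in HIP_Sham and 6.76, 7.13 and 7.45 FPKM in HIP_PEL_10d, and the groups did not overlap. The 5 markers of choroid plexus summed to 11.5, 4297 and 5387 FPKM in HIP_Sham 1, 2 and 3 and to 129.6, 37.2 and 792 FPKM in HIP_PEL_10d, so they were high in the libraries HIP_Sham 2 and HIP_Sham 3, and their part in the hippocampal values was not tested. Without HIP_Sham 1, Mcm6 was the 1 gene called by edgeR (0.51 ± 0.11, adjusted p = 0.0389), where 2.09% of all genes were higher. Ccne1 had 7.02 FPKM and 5.74 FPKM in HIP_Sham 2 and HIP_Sham 3 and 6.89, 7.51 and 7.65 FPKM in HIP_PEL_10d, the last 3 all above its PEL_3d values in the hypothalamus. There is no hippocampal group of day 3.

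A few of the genes had levels that differed by region, and there the libraries that stood apart did not lie with their labels. E2f1 had 0.340 to 0.677 FPKM in Sham 2, Sham 3 and Sham_GH and 1.44 to 2.11 FPKM in HIP_Sham 2, HIP_Sham 3 and HIP_PEL_10d. Sham 1 had 2.05 FPKM and HIP_Sham 1 had 0.673 FPKM of E2f1. Racgap1 had 4.53 to 6.70 FPKM in the same hypothalamic libraries and 1.71 to 2.56 FPKM in the same hippocampal libraries, with 2.54 FPKM in Sham 1 and 5.45 FPKM in HIP_Sham 1. These values are a description, with no test.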

How the data were processed

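The authors aligned reads with Hisat2 and counted them with featureCounts according to the study's methods, and the submitters' processing notes name GRCm38 and mm10. They deposited 1 table with an expected count and an FPKM value per gene and sample. Of the deposited counts, 8.22% were not exactly whole numbers (any fractional part, with no tolerance), so counts were rounded. The deposited FPKM values, which the authors scaled by transcript length and depth, were used unchanged, with 0.1 added before a log2. Symbols were matched for 22219 of 22274 gene identifiers and 55 kept theirs. Each fit held only the groups compared, and genes that passed filterByExpr (minimum count 10) were tested with edgeR 4.0.16 in R 4.3.3 by the quasi-likelihood test after TMM scaling. P-values were adjusted over all genes tested by Benjamini-Hochberg (threshold 0.05). The fits were tested on simulated data. Alternatives were DESeq2 1.42.0, DESeq2 size factors, other count filters, a replicate block, 1 fit over all hypothalamic groups and each library left out. Positions are those of GENCODE vM21. Tables and plots used pandas 2.3.3 and matplotlib 3.10.9.

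Genes were named by a rule, which took the 20 members with the lowest p over the comparisons of day 10 with day 3 and of PEL_3d with Sham, and 4 more from a fixed list, and up to 3 genes of each other list. Other members are named where a count is small, where they differ from the rest, or as the partner of a named gene, and these were chosen after their values were seen. The 48 genes and the lists were chosen with earlier results of these data known. Nothing in the labels says that replicates came from separate animals, so p-values measure the spread between these samples. Counting intervals and floors (3 counts) cover counting error only.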

Additional observations from a re-analysis of the deposited data

How the results depend on the processing

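Of 188 values of the counts, sums and motif shares under the alternatives, 177 kept their direction and stayed close to the reported value, and 11 moved. PEL_10d against Sham gave 2 genes in place of 0 in 1 fit over all hypothalamic groups without Sham 1, and 0 to 2 with each library left out. PEL_10d_GH against Sham_GH gave 3 genes in place of 13 at a mean count of at least 50, where fewer genes were tested, and 8 to 12 with each library left out. HIP_PEL_10d against HIP_Sham gave 1 gene in place of 0 with DESeq2, and 0 to 1 with each library left out. As a mean of log2(FPKM + 0.1) in place of the log2 ratio of sums, the change between day 3 and day 10 was -3.29 in place of -2.98 for mitosis and -1.89 in place of -1.39 for S phase, and with GH -1.82 in place of -1.48 for S phase. With the 250 bases before the start only, CHR letters were in 12 of 42 genes in place of 23, and in 10 of 26 mitosis genes in place of 21. The share of all genes was then 19.6% in place of 21.7%. The causes were not tested except where named.

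The replicate numbers did not pair the samples, since no comparison had a correlation above 0.1 in every pair, and with the replicate number as a block the counts were 48, 46, 43, 0, 47, 11 and 0 for PEL_10d against PEL_3d, PEL_10d_GH against PEL_3d_GH, PEL_3d against Sham, PEL_10d against Sham, PEL_3d_GH against Sham_GH, PEL_10d_GH against Sham_GH and PEL_3d_GH against PEL_3d, and 0 for the rest. In Sham_GH against Sham every library correlated best with its own number. With each library left out, counts ran from 46 to 48 in PEL_10d against PEL_3d, from 44 to 47 in PEL_10d_GH against PEL_3d_GH, from 41 to 48 in PEL_3d against Sham, where 41 came without PEL_3d 3, and were 47 in PEL_3d_GH against Sham_GH. Of the single genes under alternatives, 2505 values kept their side of the threshold, 61 lost it, 3 gained it and 0 turned direction. Of the 61, 32 were in PEL_10d_GH against Sham_GH and concerned 6 genes, Anln, Cdca8, Cenpe, Ect2, Pcna and Tpx2. Low counts limit the genes at day 10 and in Sham, where up to 13 of the 48 failed the filter.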
